A study of Mus musculus with 2 samples.

Results

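The nuclei described here were adipocyte nuclei of mouse visceral fat that carried the largest share of mitochondrial RNA, and they were chosen by that share. Adipocyte nuclei were those with at least 10 UMIs (counted RNA molecules) over 8 adipocyte genes, among them Plin1 and Cidec, and at most 2 UMIs over 6 genes of mesothelial, endothelial, stromal and immune cells. Within each library the members were the 5% of adipocyte nuclei with the highest share of UMIs in mt- genes, the genes of the mitochondrial genome. There were 349 members among 6987 adipocyte nuclei, 77 of 1546 in replicate 1 and 272 of 5441 in replicate 2, out of 15058 nuclei that passed the limits on quality and 24492 called barcodes. They were compared with the 50% of adipocyte nuclei of the same library that had the lowest share, 773 nuclei in replicate 1 and 2720 in replicate 2.

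The study profiled single nuclei of gonadal white fat (visceral adipose tissue, VAT) from female C57BL/6J mice of 2 months with 1 library per mouse and 2 mice. No treatment or genetic change was applied to either mouse. The labels call the cell type Adipocytes, although the tissue was whole fat and held other cell types. The 2 animals are the replicates, and nuclei of a library are not.

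A white adipocyte holds a single large lipid droplet, with the nucleus and a thin rim of cytoplasm pressed to its edge. Mitochondrial RNA is made and kept inside mitochondria, so in a preparation of nuclei it comes with material from outside the nucleus. Mature mRNAs of short, strongly expressed genes mostly lie in the cytoplasm, while unspliced transcripts of long genes and RNAs such as Malat1, Neat1 and Xist stay in the nucleus.

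The libraries stood apart in the measure that chose the members. The median mitochondrial share of adipocyte nuclei was 5.09% in replicate 1 (range 0.578 to 14.9995%) and 0.293% in replicate 2 (0 to 14.02%). In replicate 1, 669 nuclei that met the adipocyte rule, 30.2%, had a share at or over the limit of 15% and were left out, against 12 nuclei, 0.220%, in replicate 2. Members of replicate 1 therefore lay just under that limit, with a median share of 14.04% (13.5 to 14.9995%), and those of replicate 2 had a median of 2.503% (1.74 to 14.02%). The comparison nuclei had medians of 2.83% and 0.160%. The members of replicate 2 thus had a lower typical share than the comparison nuclei of replicate 1, and each class has a meaning only within its library.

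**Figure D1:**
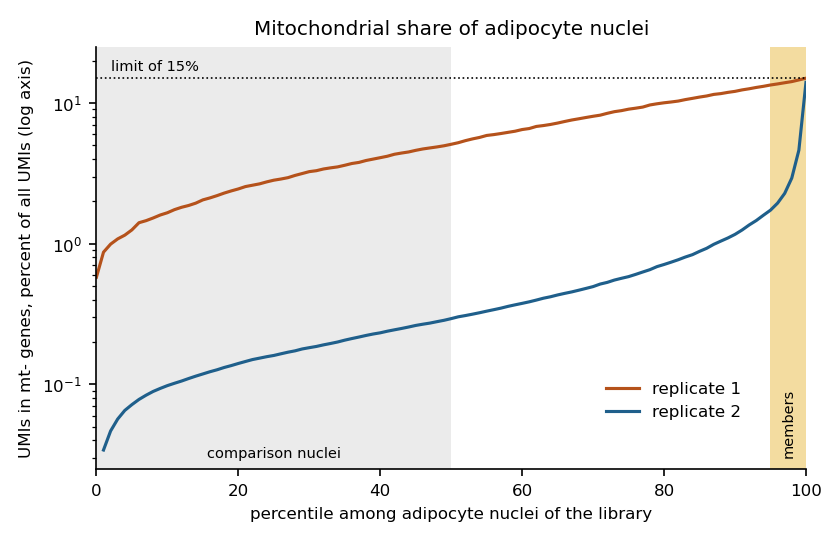
Share of UMIs in mt- genes (percent of all UMIs, log axis) against the percentile of the nucleus among adipocyte nuclei of its library, for replicates 1 and 2. The gold band marks the members, the grey band the comparison nuclei and the dotted line the limit of 15%; shares of 0 are not drawn. The curve of replicate 1 lies above that of replicate 2 and has no step at the 95th percentile.

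In the mitochondrial share the members are the end of a range, with no gap at the threshold. The last nucleus inside the threshold had a share of 13.489% (595 of 4411 UMIs) in replicate 1 and 1.73654% (140 of 8062) in replicate 2, and the first outside had 13.4348% (512 of 3811) and 1.73107% (112 of 6470). Within 10% of the threshold there were 67 nuclei inside and 75 outside in replicate 1, and 49 inside and 67 outside in replicate 2.

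Depth differed between the classes, most in replicate 2. UMIs that were not from mt- genes had a median of 2589 per member and 2960 per comparison nucleus in replicate 1, and of 2880 and 6603 in replicate 2. The libraries shared 85 barcodes, of which 14 in replicate 1 and 25 in replicate 2 were adipocyte nuclei and 1 in each was a member.

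Genes of the adipocyte rule are given as a description of the members. Plin1, which coats the lipid droplet, was at 1013 and 892 counts per 1000000 UMIs outside mt- genes (CPM) in members of replicates 1 and 2 and at 969.7 and 885 CPM in the comparison nuclei. Cidec, which fuses lipid droplets, was at 1008 and 936 CPM against 1262 and 891 CPM. Plin1 was close between the classes in both libraries, while Cidec was lower in members of replicate 1 and close in replicate 2. As part of the adipocyte rule both genes were not tested. Adipor2, a receptor for adiponectin that the rule did not use, was at 1738 and 1281 CPM in members and 1883 and 1684 CPM in comparison nuclei.

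Within the mitochondrial RNA, which is a description of the values that chose the members, ribosomal RNA made up 65.6 and 64.1% of mt- UMIs in members and 69.8 and 69.3% in comparison nuclei. Transcripts that encode proteins made up 34.4 and 35.8% in members and 30.1 and 30.5% in comparison nuclei. The protein-coding part was thus larger in members of both libraries. The large ribosomal RNA mt-Rnr2 was the most abundant at 55.3 and 45.9% in members, followed among protein genes by mt-Cytb, a subunit of complex III, at 11.3 and 9.84%. No UMI of mt-Co2, mt-Atp8, mt-Co3 or mt-Nd4l was counted in either class of either library.

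The comparison asked whether nuclei rich in mitochondrial RNA also held more of other RNAs that lie in the cytoplasm and less of RNAs kept in the nucleus. With mt- genes and the genes of the selection left out, mRNAs of ribosomal proteins, of nuclear-encoded respiratory chain subunits and of abundant adipocyte products such as Cfd, Adipoq and Scd1 were higher in the members of both libraries. Long genes such as Ghr, Acaca, Pparg and Ebf1, and the nuclear RNAs Kcnq1ot1 and Mir99ahg, were lower. In edgeR's quasi-likelihood F-test on the 4 sums of UMIs, with the library as a block and p-values adjusted by Benjamini-Hochberg, 505 of 11548 genes were higher (4.37%) and 236 lower (2.04%) at an adjusted p under 0.05, and the median log2 fold change over all genes was -0.01. Of the genes called higher, 494 were higher in both libraries, and 236 of the 236 called lower were lower in both. At an unadjusted p under 0.05 in edgeR's test, 1405 of the 11548 genes were higher and 1032 lower. The unadjusted counts of the lists below are to be read beside these. Genes called higher made up 68.2% of the calls, 85.8% when no normalization factors were used and 28.1% with no filter on low counts (212 higher and 543 lower), so which direction held more calls depended on the filter. Without the shared barcodes, a choice made after seeing the data, 630 genes were higher and 353 lower. With 2 animals the libraries count as pairs. Without the pairing 0 genes passed edgeR's test in either direction (792 higher and 94 lower at an unadjusted p under 0.05). DESeq2 with the pairing called 153 higher and 43 lower. It gave no adjusted p for 5150 of the 11548 genes, and these count as not called.

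Ribosomal protein genes were higher as a group. Their summed level was 4531 CPM in members and 2120 CPM in comparison nuclei of replicate 1, and 3277 and 1153 CPM in replicate 2. Of 81 genes, 65 could be tested, 32 rose and 0 fell (44 and 0 at an unadjusted p under 0.05, 21 and 0 by DESeq2), with a median log2 fold change of 1.31 beside -0.01 for all genes. Rplp1, of the stalk of the large subunit, was at 443 and 257 CPM in members and 135 and 49.96 CPM in comparison nuclei. These values are sums over the nuclei of a class and give no spread, and Rplp1 was higher in the members of both libraries. Its log2 fold change was 2.01 (SE 0.17, adjusted p = 1.63e-11 in edgeR's quasi-likelihood F-test, adjusted by Benjamini-Hochberg). Rpl32, of the large subunit, was at 300 and 118 CPM against 110 and 32.9 CPM, a log2 fold change of 1.60. Rps24, with the most UMIs of the list, was at 177 and 169 CPM against 132 and 99.7 CPM and missed the threshold (adjusted p = 0.0518 in edgeR's test).

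Of 20 translation factors and cytosolic chaperones, 6 rose and 0 fell in edgeR's test (9 and 0 unadjusted, 3 and 0 by DESeq2), with a median log2 fold change of 0.44. Hspa8, the constitutive Hsc70 chaperone, was at 173 and 127 CPM in members and 77.5 and 47.9 CPM in comparison nuclei (log2 fold change 1.24, SE 0.21). Eef2, which moves the ribosome along the mRNA, was at 240 and 145 CPM against 136 and 68.3 CPM (0.91, SE 0.18). Both were higher in members of each library, while Eif4a2, with the most UMIs of the list, was lower in members of each library, at 80.2 and 148 CPM against 115 and 172 CPM, and was not called (adjusted p = 0.246 in edgeR's test).

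Nuclear genes of the respiratory chain, whose mRNAs are translated in the cytosol and whose proteins are imported into mitochondria, rose with the mitochondrial RNA. Their sum was 10054 CPM in members and 5185 CPM in comparison nuclei of replicate 1, and 6752 and 3326 CPM in replicate 2. Of 80 genes, 77 could be tested, 42 rose and 0 fell in edgeR's test (60 and 0 unadjusted, 23 and 0 by DESeq2), with a median log2 fold change of 1.07. Cox6a1, a subunit of complex IV, was at 473 and 223 CPM in members and 159 and 40.9 CPM in comparison nuclei (log2 fold change 1.98, SE 0.18, adjusted p = 5.67e-11 in edgeR's quasi-likelihood F-test, adjusted by Benjamini-Hochberg). Cox4i1, of the same complex, was at 506 and 269 CPM against 180 and 65.4 CPM (1.73, SE 0.16), and Uqcr10, of complex III, had a log2 fold change of 2.00. Ndufs4, a subunit of complex I and the gene of the list with the most UMIs, was at 257 and 227 CPM against 220 and 219 CPM and was not called (0.04, adjusted p = 0.921 in edgeR's test).

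Other lists of metabolic genes held fewer calls than the respiratory chain, where 54.5% of the genes tested rose. The share that rose was 20% for the tricarboxylic acid cycle, 0% for mitochondrial DNA expression and 33.3% for glycolysis, beside 4.37% over all genes. Of 15 genes of the tricarboxylic acid cycle, 3 rose (Mdh2, Pdha1 and Idh3g) and 0 fell in edgeR's test (5 and 0 unadjusted, 1 and 0 by DESeq2), with a median log2 fold change of 0.25. Mdh2, malate dehydrogenase, was at 270 and 144 CPM in members and 124 and 69.0 CPM in comparison nuclei. Pcx, the most abundant gene of this list, was at 1751 and 1629 CPM against 1720 and 2046 CPM and was not called. Of 18 genes for the copying and transcription of mitochondrial DNA, the handling of its RNA and their regulation, such as Tfam and Polrmt, 0 were called in either direction by edgeR or DESeq2 (0 higher and 1 lower at an unadjusted p under 0.05 in edgeR), and their median was -0.28. Their summed level was 435 and 630 CPM in members and 629 and 653 CPM in comparison nuclei. Of 12 genes of glycolysis and glucose uptake, 4 rose (Aldoa, Ldha, Slc2a4 and Tpi1) and 0 fell in edgeR's test (6 and 0 unadjusted, 2 and 0 by DESeq2), with a median of 0.58. Slc2a4, the insulin-responsive glucose transporter, was at 734 and 360 CPM against 411 and 250 CPM, higher in the members of both libraries. Hk2, with the highest level of that list, was at 755 and 520 CPM against 688 and 556 CPM and was not called.

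Abundant and secreted adipocyte products such as Scd1, Cfd and Fabp4 were among the genes with the largest gains in CPM, though not in fold change. The list is called the secreted list below, but it also holds genes of proteins that stay in or on the cell, such as Scd1, Car3 and Cd36. Its 22 genes summed to 62721 CPM in members and 35358 CPM in comparison nuclei of replicate 1, and to 35515 and 18532 CPM in replicate 2. Scd1 alone gave 21846 and 9451 CPM of the sums in members. Of the 22, 13 rose and 1 fell in edgeR's test (15 and 2 unadjusted, 12 and 0 by DESeq2), with a median log2 fold change of 0.95. Cfd, the secreted protease adipsin (chromosome 10, 79726668 to 79728496 of GRCm39), was at 9826 and 5042 CPM in members and 3000 and 854 CPM in comparison nuclei. It was higher in the members of both libraries. Its log2 fold change was 2.08 (SE 0.15, Benjamini-Hochberg adjusted p = 5.16e-13 in edgeR's quasi-likelihood F-test).

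Adipoq, the hormone adiponectin, was at 1641 and 782 CPM in members and 769 and 283 CPM in comparison nuclei (log2 fold change 1.22, SE 0.14, adjusted p = 2.09e-08 in edgeR's test). Scd1, which makes monounsaturated fatty acids, was at 21846 and 9451 CPM against 10817 and 4305 CPM (1.01, SE 0.14). Scd1 and Adipoq were higher in the members of each library, but the levels in members of replicate 2 were near those in comparison nuclei of replicate 1. Hp, haptoglobin, had a log2 fold change of 1.81, Rbp4, the retinol carrier, 1.20, Retn, resistin, 0.98 and Fabp4, the fatty acid carrier, 0.91.

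Not every abundant adipocyte mRNA was higher in the members. Lep, the hormone leptin, was at 561 and 348 CPM in members and 604 and 383 CPM in comparison nuclei (adjusted p = 0.497 in edgeR's test). Car3, a carbonic anhydrase, was at 4548 and 4723 CPM against 3589 and 3912 CPM, and Cd36, the fatty acid receptor, at 2029 and 1507 CPM against 1825 and 1228 CPM, and neither was called. Aldh1a1, which makes retinoic acid, was the gene of the list that fell in edgeR's test and was not called by DESeq2, at 215 and 444 CPM against 355 and 599 CPM (log2 fold change -0.61, SE 0.15).

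**Figure D2:**
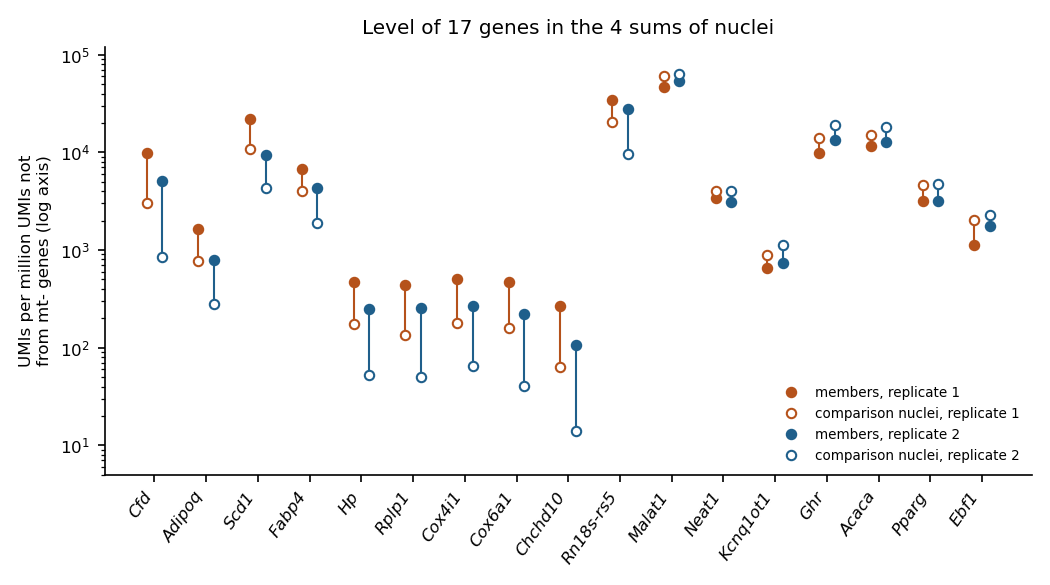
Level in CPM (UMIs in each 1000000 outside mt- genes, log axis) for genes of the secreted, ribosomal, respiratory and nuclear lists, in members (filled points) and comparison nuclei (open points) of replicates 1 and 2; lines join the classes of a library. From Cfd to Rn18s-rs5 the filled points lie above the open ones in both libraries, and from Malat1 to Ebf1 below them.

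To set depth aside, each nucleus was thinned at random to 850 UMIs outside mt- genes. Adipoq was then seen in 72.7% of members (95% exact Clopper-Pearson interval 61.4 to 82.3%) and 44.9% of comparison nuclei (41.3 to 48.5%) in replicate 1, and in 41.5% (35.6 to 47.7%) and 21.5% (19.9 to 23.1%) in replicate 2. In macrophage nuclei, which should lack it, the share was 13.98% and 5.93%, so both classes were above that background. For Cfd the shares were 100% and 84.4% in replicate 1 and 87.1% and 48.6% in replicate 2, against 52.7 and 35.4% of macrophage nuclei. The intervals cover counting error only. Median depths before thinning were 1371 and 1764 UMIs outside mt- genes for the macrophage nuclei. The median number of genes per thinned nucleus was 572 in members and 583 in comparison nuclei of replicate 1, and 606 and 598 in replicate 2.

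Nuclear long noncoding RNAs were lower in sum. They took 54389 CPM in members and 69774 CPM in comparison nuclei of replicate 1, and 62554 and 74763 CPM in replicate 2, most of it Malat1. Of 21 RNAs listed, 15 could be tested, 0 rose and 2 fell in edgeR's test (0 and 7 unadjusted, 0 and 2 by DESeq2), and the median log2 fold change was -0.32. In each library alone, without normalization factors, the median was -0.17 in replicate 1 and -0.23 in replicate 2, beside 0.06 and 0.12 for all genes. Kcnq1ot1, the antisense RNA that silences the Kcnq1 imprinted domain, was at 654 and 731 CPM in members and 888 and 1127 CPM in comparison nuclei (log2 fold change -0.61, SE 0.14, adjusted p = 0.00471 in edgeR's quasi-likelihood F-test, adjusted by Benjamini-Hochberg). Mir99ahg, a microRNA host gene, was at 966 and 1307 CPM against 1575 and 1624 CPM (-0.56, SE 0.14). Both were lower in members of each library.

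The RNAs best known for staying in the nucleus pointed the same way and missed the threshold. Malat1, of nuclear speckles, was at 46769 and 54278 CPM in members and 60390 and 64096 CPM in comparison nuclei (log2 fold change -0.37, SE 0.15, adjusted p = 0.132 in edgeR's test). Neat1, the scaffold of paraspeckles, was at 3426 and 3095 CPM against 4027 and 4042 CPM (-0.37, adjusted p = 0.0873). Xist, which coats the inactive X chromosome, was at 1401 and 1703 CPM against 1575 and 2155 CPM (-0.32, adjusted p = 0.149). Each of them was lower in the members of both libraries. Of 8 host genes of small nucleolar RNAs tested, 0 were called by edgeR or DESeq2 (0 higher and 1 lower unadjusted). Over all genes edgeR called 4.37% higher and 2.04% lower, so this count is near that share. The median of the host genes was 0.11, and a difference from the nuclear RNAs was not tested. Of 13 immediate early and heat shock genes tested, which can respond to dissociation of tissue, 0 were called by either tool (3 higher and 0 lower unadjusted), with a median of 0.43.

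Some adipocyte regulators with long genes were lower. Of 17 transcription factors and signalling genes tested, 4 fell and 1 rose in edgeR's test (10 and 1 unadjusted, 3 and 1 by DESeq2), with a median log2 fold change of -0.34. Pparg, the nuclear receptor that directs adipocyte identity, was at 3202 and 3208 CPM in members and 4636 and 4752 CPM in comparison nuclei (-0.61, SE 0.13, adjusted p = 0.00279 in edgeR's test). Ghr, the growth hormone receptor, was at 9966 and 13512 CPM against 13920 and 19014 CPM (-0.55, SE 0.14), and Ebf1, an early B cell factor that acts in adipocytes, at 1131 and 1761 CPM against 2016 and 2295 CPM (-0.66, SE 0.14). These 3 genes were lower in the members of each library, as was Eepd1, while Mgll, a lipase with a gene of 153.2 kb, was at 578 and 434.6 CPM against 563 and 433.4 CPM and was not called. Cebpa, a partner of Pparg whose gene spans 2.636 kb, was the gene that rose, at 325 and 188 CPM against 192 and 76.1 CPM (1.00, SE 0.17).

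Enzymes of a single pathway went both ways. Of 14 genes of de novo lipogenesis, 5 rose (Fasn, Scd2, Thrsp, Slc25a1 and Insig1) and 2 fell (Acaca and Pnpla3) in edgeR's test (6 and 4 unadjusted, 4 and 2 by DESeq2), with a median log2 fold change of -0.00. Scd1, which makes monounsaturated fatty acids, was counted with the abundant adipocyte products and not in this list, and it rose (log2 fold change 1.01). Acaca, which makes malonyl-CoA and spans 272 kb, was at 11506 and 12838 CPM in members and 14985 and 18156 CPM in comparison nuclei (-0.50, SE 0.14, adjusted p = 0.0214 in edgeR's test). Fasn, which uses malonyl-CoA, was at 4907 and 3568 CPM against 3448 and 2368 CPM (0.49, SE 0.13, adjusted p = 0.0178 in edgeR's test). Acaca was lower and Fasn higher in the members of both libraries. Among 13 thermogenic genes tested 0 rose and 1 fell in edgeR's test, the coactivator Ppargc1b (-0.59), with the same counts unadjusted and 0 by DESeq2, and Cidea, a lipid droplet protein high in brown fat, was at 97.0 and 60.8 CPM against 71.6 and 53.2 CPM and was not called.

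**Figure D3:**
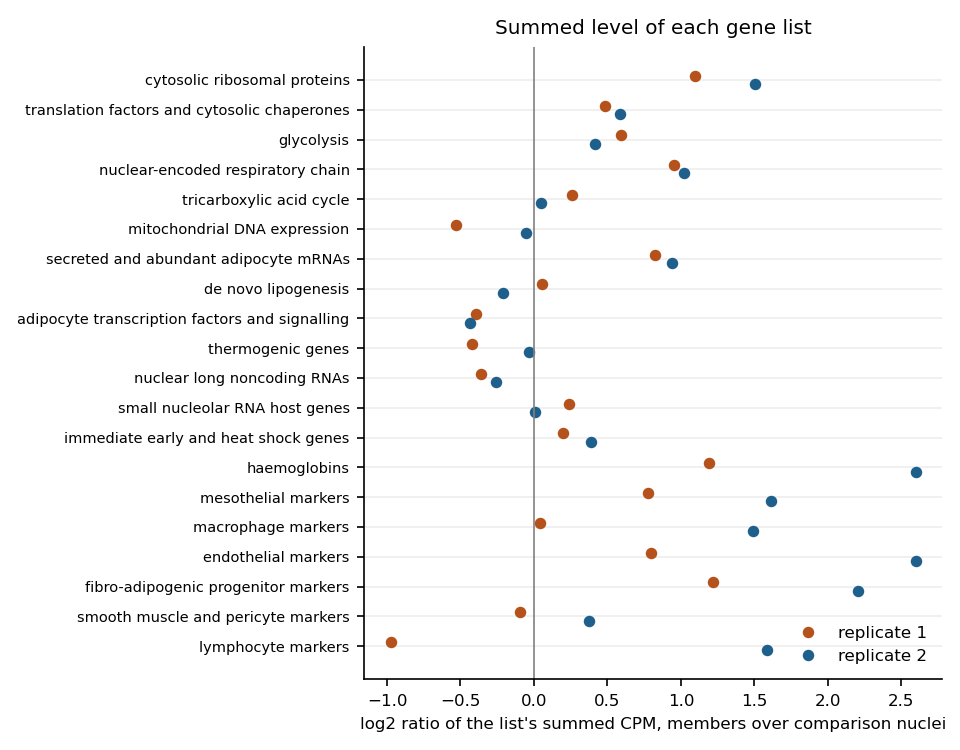
The log2 ratio of the summed level of each gene list, members over comparison nuclei, with a point for each library. Ribosomal protein, respiratory chain and secreted lists lie right of 0 in both libraries, with nuclear long noncoding RNAs and transcription factors left of 0; marker lists of other cells lie farther right in replicate 2 than in replicate 1.

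The calls sorted by the length of the gene in the genome, a property that the selection did not use. Genes that rose spanned a median of 10.67 kb and genes that fell a median of 155.2 kb, beside 32.56 kb for all genes tested. The mature transcript had a median of 1.532 kb for genes that rose, 3.585 kb for genes that fell and 2.713 kb for all genes. Of 561 genes with more than 1 exon that spanned under 5 kb, 106 rose and 1 fell (median log2 fold change 0.60), and of 1317 genes of 100 to 200 kb, 20 rose and 80 fell (median -0.14). Short genes were thus mostly on the side of the ribosomal proteins, and more of the long genes fell than rose. Without the ribosomal protein and respiratory chain genes, 68 of 432 protein-coding genes under 5 kb rose, with a median of 0.62.

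Long genes were mixed, and their level divided them. With a limit of 50 CPM on the mean level, chosen after the values were seen, 663 genes of 100 to 200 kb were at or above it, of which 79 fell (median log2 fold change -0.34), and of the 654 under it 20 rose and 1 fell (median 0.44). Of 1017 genes over 200 kb, 57 rose and 90 fell, and the median log2 ratio was -0.17 in replicate 1 and 0.82 in replicate 2. Of these, 432 were at or above the same limit, of which 14 rose and 90 fell (median log2 ratios of -0.38 and -0.22 in replicates 1 and 2). Of the 585 under it, 43 rose and 0 fell in edgeR's test (242 and 2 unadjusted, 0 and 0 by DESeq2), with medians of 0.24 and 1.44. A gene at a low level can pass the filter on low counts through the members alone, so the values of the genes under the limit are given as a description. DESeq2 gave no adjusted p for 5150 of all genes tested, so its 0 and 0 can stand for genes that were not evaluated. Long genes at high levels were mostly lower in the members of both libraries. Under 5 kb, 97 genes with more than 1 exon were at or above the limit, of which 58 rose and 0 fell (median 0.95). The other 464 were under it, of which 48 rose and 1 fell.

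**Figure D4:**
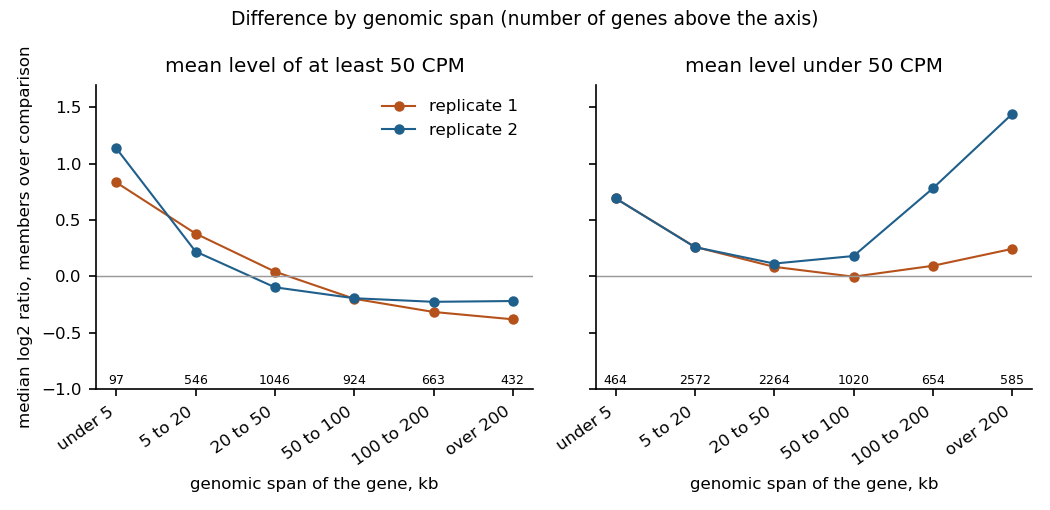
Median log2 ratio of CPM, members over comparison nuclei, by genomic span of the gene (kb) in replicates 1 and 2, for genes with a mean level of at least 50 CPM and for genes under it; small digits give the number of genes. At high levels the median falls with span up to 200 kb in both libraries, and at low levels it is higher over 100 kb than at 20 to 100 kb, at 1.44 in replicate 2 over 200 kb.

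Across 20 bins of adipocyte nuclei ordered by mitochondrial share, the levels changed over the whole range in replicate 1 and mainly in the last bins of replicate 2. The bins held 77 or 78 nuclei in replicate 1 and 272 or 273 in replicate 2, and the last bin is the members. Ribosomal protein genes were at 1680 CPM in the first bin, 2592 CPM in bin 10 and 4531 CPM in the last bin of replicate 1, and at 1120, 1275 and 3277 CPM in replicate 2. The secreted list was at 28651, 41850 and 62721 CPM in replicate 1, and at 17868, 19538 and 35515 CPM in replicate 2. By bin 10 the secreted list had covered a larger part of its gain in replicate 1 than in replicate 2.

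The nuclear RNAs ended lower than they began in both libraries. Nuclear long noncoding RNAs were at 75158 CPM in the first bin, 62045 CPM in bin 10 and 54389 CPM in the last bin of replicate 1, after 54708 CPM in bin 15 and 52123 CPM in bin 19. In replicate 2 they were at 74192, 74863 and 62554 CPM, and still at 73928 CPM in bin 15. Cfd rose 6.16-fold from the first bin to the last in replicate 1 and 7.10-fold in replicate 2, the largest ratio of the named genes followed this way. Markers of fibro-adipogenic progenitors rose 3.64-fold and 5.81-fold over the same bins, endothelial markers 3.07-fold and 7.13-fold, and haemoglobins 5.46-fold in replicate 2 (their first bin held 0 in replicate 1). The progenitor list was highest in the last bin in both libraries, the endothelial and haemoglobin lists in replicate 2 alone. In replicate 1 the endothelial list ended at 84.4 CPM from 20 UMIs, after 109 CPM in an earlier bin. Haemoglobins of replicate 1 were at 24.1 CPM in bin 15 and at 8.44 CPM in the last bin, from 2 UMIs. The part of these lists in the result was not tested.

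**Figure D5:**
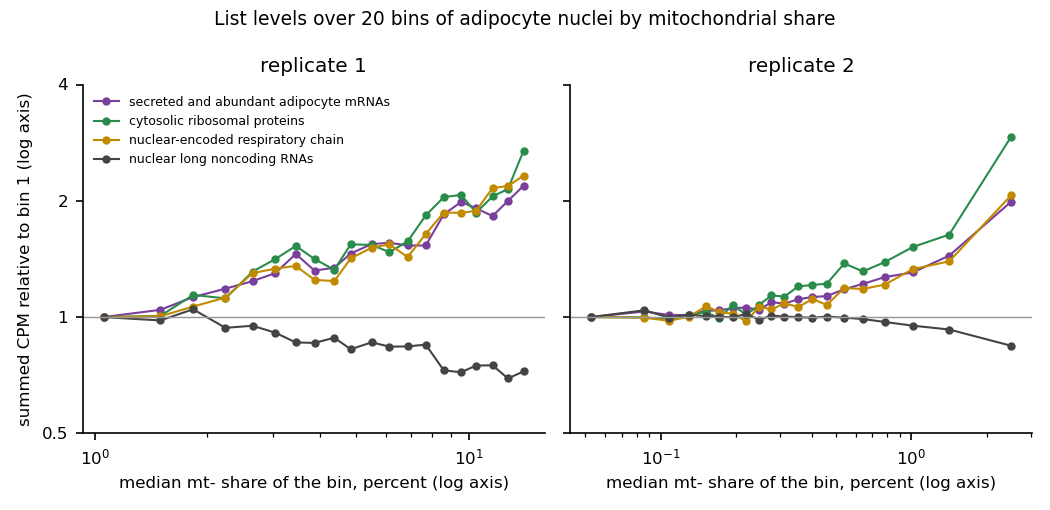
Summed level of 4 gene lists in 20 bins of adipocyte nuclei, relative to bin 1 (log axis), against the median mitochondrial share of the bin (percent, log axis), in replicates 1 and 2. The secreted, ribosomal protein and respiratory chain lists reach 1.99 to 2.93 times the first bin, and nuclear long noncoding RNAs end at 0.724 and 0.843 of it.

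Within the classes the nuclei varied and the ranges overlapped. The secreted list took a median of 6.05% of the UMIs outside mt- genes in members of replicate 1 (2.30 to 14.4%) and 3.34% in comparison nuclei (0.617 to 11.6%), and 93.5% of members were above the median of the comparison nuclei. In replicate 2 the medians were 3.24 and 1.78%, and 87.5% of members were above. For ribosomal proteins 83.1 and 86.4% of members were above the comparison median, and for Malat1 27.3 and 30.9%. Most members thus shared the direction in every one of these measures, and some in each library did not.

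The largest fold changes upward were ranked among calls with at least 100 UMIs. Cyyr1 (log2 fold change 3.16), Ablim3 (2.90), Hbb-bs (2.57), Ttn (2.48), Adgrf5 (2.45) and Wfdc21 (2.31) were in this rank, each at most at 52.5 CPM in a class. Such genes can pass the filter on low counts through the members alone, as for Ablim3 with 9 and 81 UMIs in the comparison nuclei, so their place in the rank is a description. Chchd10, a small protein of the mitochondrial intermembrane space, was at 266 and 107 CPM in members and 63.4 and 14.1 CPM in comparison nuclei (log2 fold change 2.46, SE 0.23, adjusted p = 2.64e-10 in edgeR's test). Ifi27l2a, an interferon-responsive protein, was at 553 and 449 CPM against 174 and 59.9 CPM (2.29, SE 0.18). Both were higher in members of each library. The pseudogenes Rps13-ps2, Rps10-ps1 and Tpt1-ps3 also led this rank, and reads of a pseudogene can come from its parent gene, so their source is uncertain. Of 77 processed pseudogenes tested, 26 rose and 0 fell in edgeR's test (48 and 0 unadjusted, 5 and 0 by DESeq2), with a median of 1.67. A pseudogene at a low level can also pass the filter through the members alone, so these counts and the median are a description.

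The largest fold changes downward were ranked in the same way, with predicted genes not described. St6galnac5, a sialyltransferase, was at 25.3 and 31.3 CPM in members and 53.5 and 75.2 CPM in comparison nuclei (log2 fold change -1.31, SE 0.32, adjusted p = 0.0074 in edgeR's test). Prlr, the prolactin receptor, was at 59.1 and 80.1 CPM against 111 and 137 CPM (-0.89, SE 0.22), and Hoxa9, a homeobox factor, at 42.2 and 44.2 CPM against 87.0 and 76.1 CPM (-0.94, SE 0.27). All 3 were lower in the members of both libraries. Trmt61b, Ppp6r2, Banp, Ccz1, Phrf1, Gab1 and Lars completed the named genes of this rank, with log2 fold changes from -1.16 to -0.87.

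Rn18s-rs5, chosen after its values were seen for the largest difference in level, is annotated as related to the 18S ribosomal RNA, whose many copies in the genome make the assignment of reads uncertain. It was at 34297 and 27766 CPM in members and 20548 and 9665 CPM in comparison nuclei (log2 fold change 1.07, SE 0.15, adjusted p = 3.68e-06 in edgeR's test). With members chosen by protein-coding mt- genes alone, its log2 fold change was -0.08, so the gain was not seen under that choice.

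Several markers of other cell types were also higher in members, although the selection allowed at most 2 UMIs of 6 such genes per nucleus. No other step to find doublets was run. Of 10 endothelial markers, 5 could be tested and 4 rose (Cyyr1, Cdh5, Kdr and Flt1; 5 unadjusted), and the list sum was 84.4 and 169 CPM in members and 48.7 and 27.8 CPM in comparison nuclei, and Flt1 had the most UMIs. In the comparison nuclei Cyyr1, Cdh5 and Kdr were at 2.58, 5.16 and 4.43 CPM in replicate 1 and at 3.84, 2.54 and 2.76 CPM in replicate 2, so they could pass the filter through the members alone and the count is no support for a difference. Flt1 was at 21.1 and 51.6 CPM against 26.2 and 11.0 CPM, so it was higher in replicate 2 alone. Egfl7, Emcn, Tie1, Mmrn1, Ccl21a and Flt4 had 0 UMIs in members of replicate 1. Endothelial levels were thus low in both libraries, and the median log2 ratio of the list was 1.20 in replicate 1 and 3.02 in replicate 2. DESeq2 called 0 genes of this list, of the mesothelial, macrophage, smooth muscle and lymphocyte lists or of the haemoglobins, but 4 of the progenitor markers below. It gave no adjusted p for 5150 genes, so a 0 here can stand for genes that were not evaluated.

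Of 10 markers of fibro-adipogenic progenitors, all could be tested and 5 rose (Gsn, Dcn, Lum, Col1a1 and Col1a2), with 10 higher at an unadjusted p under 0.05 and 4 by DESeq2, and their sum was 5012 and 2151 CPM in members and 2156 and 467 CPM in comparison nuclei. Gsn, an actin-severing protein that adipocytes express as well, gave most of the sum, at 4156 and 1571 CPM against 1696 and 328 CPM. After thinning Gsn was seen in 90.9 and 63.6% of members, 68.8 and 22.7% of comparison nuclei and 47.3 and 22.9% of macrophage nuclei. The comparison nuclei of replicate 2 were thus near the macrophage nuclei. Whether macrophages express Gsn themselves was not tested. Pdgfra, which defines these progenitors, was at 12.7 and 12.9 CPM in members and 8.11 and 3.25 CPM in comparison nuclei and was not called (adjusted p = 0.191 in edgeR's test). Pdgfra was low beside Gsn and, like the list, higher in the members of both libraries, and the median log2 ratio of the list was 0.93 in replicate 1 and 2.01 in replicate 2. After thinning, Dcn was seen in 29.9% of members and 19.02% of comparison nuclei in replicate 1, and in 22.8 and 6.73% in replicate 2, against 23.7 and 14.7% of macrophage nuclei. Comparison nuclei of replicate 2 were thus below the macrophage nuclei. In replicate 1 the 95% exact interval of the macrophage nuclei (15.46 to 33.6%) included the value of the comparison nuclei. The interval of the members of replicate 1 (19.97 to 41.4%) included the macrophage value, and that of replicate 2 (17.95 to 28.25%) was above it.

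Of 10 macrophage markers, 7 could be tested and 2 rose (Lyz2 and C1qa), with 6 higher at an unadjusted p under 0.05, and the list summed to 371 and 449 CPM in members and 361 and 160 CPM in comparison nuclei, with Rbpj the most abundant. The median log2 ratio of this list was 0.12 in replicate 1 and 2.03 in replicate 2, so its difference rests on replicate 2. Of 10 mesothelial markers, 3 could be tested and 1 rose, Gpm6a, with 2 higher unadjusted, and the list summed to 92.8 and 113 CPM against 54.2 and 37.1 CPM, with Muc16 the most abundant and Krt8, Krt18, Lrrn4 and Bnc1 at 0 in members of replicate 1. Of 8 smooth muscle and pericyte markers 1 of 6 tested rose, Rgs5, and the list summed to 131 and 177 CPM against 139 and 136 CPM, with Cspg4 the most abundant and Acta2 at 0 in members of replicate 1. Of 9 lymphocyte markers 0 of 2 tested were called in edgeR's test, also unadjusted, and the list, led by Skap1, summed to 8.44 and 70.0 CPM against 16.6 and 23.3 CPM, with Skap1, Cd3e, Trbc2, Themis, Il7r, Cd79a and Cd79b at 0 in members of replicate 1.

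Haemoglobins are made by the cells that become red blood cells and not by adipocytes. Of 4 genes, 2 could be tested (2 higher unadjusted) and 1 rose, Hbb-bs, at 4.22 and 45.1 CPM in members and 1.11 and 6.60 CPM in comparison nuclei (log2 fold change 2.57, SE 0.65, adjusted p = 0.0113 in edgeR's test). The list summed to 8.44 and 96.7 CPM against 3.69 and 16.0 CPM, from 2 UMIs in the members of replicate 1 and 105 in those of replicate 2, and Hbb-bt was at 0 in both classes of replicate 1. The part that free RNA, other cells and the lower depth of the members had in the result was not tested. When each member was compared with the nucleus of nearest depth among the comparison nuclei, 249 genes rose and 54 fell, and the medians were 1.26 for ribosomal proteins, 0.97 for the respiratory chain, 0.97 for the secreted list and -0.30 for nuclear long noncoding RNAs.

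Mesothelial and macrophage nuclei had a higher median mitochondrial share than adipocyte nuclei in each library. The median was 9.92 and 1.23% in mesothelial nuclei, 8.56 and 1.22% in macrophage nuclei, and 10.6 and 1.54% in called barcodes with at most 1000 UMIs. Called barcodes of that kind held the secreted list at 22679 and 8973 CPM, below both classes of adipocyte nuclei, and haemoglobins at 44.4 and 163 CPM, above both. They held nuclear long noncoding RNAs at 33156 and 29361 CPM, also below both. Ribosomal proteins, at 3368 and 2307 CPM, were above the comparison nuclei and below the members, and progenitor markers, at 7054 and 2977 CPM, and endothelial markers, at 662 and 580 CPM, were above both classes in each library.

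The same division by mitochondrial share was made in mesothelial nuclei, to ask whether the difference was particular to adipocyte nuclei. In replicate 2, with 62 and 616 mesothelial nuclei in the classes, ribosomal proteins were at 7422 CPM in the nuclei of high share and 3059 CPM in those of low share, and nuclear long noncoding RNAs at 30280 and 54073 CPM. In replicate 1 the class of high share held only 6 mesothelial nuclei, with ribosomal proteins at 8473 against 6152 CPM and nuclear long noncoding RNAs at 29400 against 38025 CPM. The respiratory chain list was at 3879 CPM in the nuclei of high share and 4069 CPM in those of low share in replicate 1 and at 4817 and 2487 CPM in replicate 2, and the secreted list at 11944 and 10451 CPM and at 10640 and 5263 CPM. The direction of the 4 lists was thus that of adipocyte nuclei, except for the respiratory chain in replicate 1. Marker lists differed between the mesothelial classes as well: in replicate 2 mesothelial markers were at 2856 against 4248 CPM, macrophage markers at 1488 against 550 CPM and haemoglobins at 442 against 48.6 CPM, and in replicate 1 at 5819 against 4711, 510 against 618 and 0 against 24.7 CPM. The direction of these 3 lists was not shared by the libraries, and their part in the result was not tested. In edgeR's quasi-likelihood F-test of the interaction, adjusted by Benjamini-Hochberg, 49 of 11469 genes (0.427%) differed, 46 higher (0.401%) and 3 lower (0.0262%) in the adipocyte nuclei, and the median difference over all genes was 0.36. Of the ribosomal protein, respiratory chain, secreted and nuclear RNA lists, 53, 77, 22 and 17 genes were tested and 0 were called. At an unadjusted p under 0.05 there were 5, 5, 4 and 4, beside 693 of all 11469 genes. Median log2 fold changes of these lists were 1.26, 0.958, 0.832 and -0.385 in adipocyte nuclei. In mesothelial nuclei the medians were 0.782, 0.495, 0.245 and -0.998. Over all genes they were -0.0630 and -0.294. With only 6 mesothelial nuclei in 1 class, the lack of calls does not show that the differences were equal.

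The extra RNA of members was also set against the extra mt- UMIs, which chose them, as a description. For each 100 extra mt- UMIs, members held 5.01 and 13.1 extra UMIs of Cfd, against 0.287 and 1.21 in mesothelial nuclei and -0.0839 and 0.824 in macrophage nuclei of the class of high share. For ribosomal proteins the values were 1.77 and 6.62 in members, 2.55 and 8.79 in mesothelial and 3.73 and 7.30 in macrophage nuclei. Extra Cfd was therefore largest in members in both libraries and extra ribosomal protein RNA was not. The macrophage classes of high share held 5 and 24 nuclei, and these ratios were not tested.

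Adipocyte nuclei at or over the limit of 15%, which the selection left out, continued the order in replicate 1. The 669 such nuclei held Cfd at 12854 CPM, Adipoq at 1861 CPM and the ribosomal protein list at 4679 CPM, above the members, and Malat1 at 38718 CPM, below them. The 12 nuclei of replicate 2, too few for a firm value, held Cfd at 19472 CPM and Malat1 at 10973 CPM.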

How the data were processed

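Single nuclei of VAT of 2 mice were measured, with 1 library each. The deposited files hold UMI counts per gene and nucleus, made by the authors with CeleScope on GRCm39, and the authors' saturation tables hold percent values (65.79 and 52.77% of UMIs). The protocol names a Singleron kit, while the sample labels name 10x Genomics. The members and lists were chosen with earlier results of these data known. Nuclei had more than 500 genes, more than 1000 UMIs and under 15% mt- UMIs, which left 2833 and 12225 nuclei with 8466237 and 48068273 UMIs. UMIs were summed per library and class without the 37 mt- genes and 21 genes that chose nuclei, filtered with filterByExpr, scaled by TMM and tested with edgeR 4.0.16 in R 4.3.3 (quasi-likelihood F-test, library as block, Benjamini-Hochberg adjustment), which was checked on simulated data; DESeq2 1.42.0 was the other tool. Mesothelial nuclei had at least 2 UMIs and macrophage nuclei at least 3 UMIs of their genes, with at most 2 of the adipocyte genes. Spans came from GENCODE vM39, where 56236 of 56980 identifiers were found. Genes named were list members, among them the most abundant gene of most lists. Also named were the 12 calls with the largest fold change in each direction with at least 100 UMIs, predicted genes not described. These calls had the same direction in both libraries. Python 3.11.15, numpy 2.4.6, scipy 1.17.1, pandas 2.3.3 and matplotlib 3.10.9 were used. Alternatives changed the percentile, comparison nuclei, gates, limits, depth, normalization, filter and block, and left out each library.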

Additional observations from a re-analysis of the deposited data

Results flagged for a closer look

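In the test of the interaction with cell type (edgeR), 49 genes had a difference by mitochondrial share that was not the same in adipocyte and mesothelial nuclei. Among the named genes, the log2 fold change in adipocyte nuclei minus that in mesothelial nuclei was 3.14 for Wt1, 2.59 for Gpm6a, 2.36 for Dpp4 and 1.98 for Col1a2, all markers of mesothelial nuclei or progenitors and genes that mesothelial nuclei themselves express. It was 3.92 for Ablim3 and 3.24 for Adgrf5, which led the genes higher in members. It was -3.24 for Lyz2, a macrophage marker, which had 56 UMIs in the mesothelial nuclei of high share of replicate 2 and 0 in the 6 of replicate 1. Wt1 and Ablim3 also had 0 UMIs in these 6 nuclei. The class of high share held only 6 mesothelial nuclei in replicate 1, and the cause of these differences was not tested.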

How the results depend on the processing

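Against 505 genes higher and 236 lower, the counts were 892 and 420 with the top 10% as members, 847 and 396 against the 25% of lowest share, 896 and 48 with no mitochondrial limit, 1010 and 616 with an adipocyte gate of 5 UMIs, 238 and 37 with one of 20, 233 and 39 with no exclusion UMIs, 249 and 54 against nuclei of nearest depth, 153 and 43 with DESeq2 (5150 genes without an adjusted p), 212 and 543 with no filter on low counts (28.1% of calls higher), and 0 and 0 in edgeR without the replicate block (792 and 94 unadjusted). Genes lower were 150 with a limit of 10%, 118 with protein-coding mt- genes and 70 without normalization factors. In each alternative that could be tested, also the one without shared barcodes chosen after seeing the data, 0 genes called in the main comparison were called the other way.

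The ribosomal protein median, 1.31, was 0.91 with the top 10%, 0.96 against all other adipocyte nuclei, 1.03 with a limit of 10%, 1.00 with a gate of 20 UMIs, 1.07 with no exclusion UMIs and 0.89 with no filter. The respiratory chain median, 1.07, was 0.81 against all other nuclei, 1.498 with no limit, 0.84 with a limit of 10% and 0.81 with no filter. The secreted median, 0.95, was 0.76, 0.69, 1.22, 0.76 and 0.71 with the top 10%, all other nuclei, no limit, a limit of 10% and no filter. The nuclear RNA median, -0.32, was -0.47 with the top 2.5%, -0.76 with no limit, -0.40 and -0.20 with gates of 5 and 20 UMIs, -0.22 with no exclusion UMIs, -0.27 with protein-coding mt- genes, -0.25 without normalization factors and -0.49 with no filter. In single libraries, which give ratios without a test or normalization factors, the 4 medians ranged from 1.12 to 1.45, 0.94 to 1.18, 0.79 to 1.05 and -0.23 to -0.17.

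Among named genes that were called, and among list medians at least 1 SD between libraries away from 0, the sign turned with protein-coding mt- genes for the mitochondrial DNA expression median (0.0465) and Rn18s-rs5 (-0.0808), and for Flt1 in replicate 1 alone (-0.18, against 2.23 in replicate 2 alone). With protein-coding mt- genes, 455 of 462 genes called higher in the main comparison stayed above 0. In the main comparison 494 of 505 were higher in both libraries. Genes that differed from mesothelial nuclei were 82 without normalization factors, 3 without the block, 158 with a mesothelial gate of 5 UMIs and 108 with the top 10%. The cause of these changes was not tested. Of 395 list medians under the alternatives, 313 moved by less than 1 SD between libraries, 81 by more, and 1 is the median above that turned in sign. Of 1954 values of named genes, 351 were no longer called, 13 were newly called and 2 are the genes above that turned in sign. The 77 members of replicate 1 and the few UMIs of marker genes limit what can be told of rare RNAs.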

Other observations

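Further genes with large differences in level were chosen after their values were seen. B2m, the light chain of class I major histocompatibility molecules, was at 1515 and 775 CPM in members of replicates 1 and 2 and at 661 and 234 CPM in comparison nuclei. Dbi, which binds acyl-CoA, was at 1126 and 728 CPM against 602 and 261 CPM, and Glul, glutamine synthetase, at 1215 and 1194 CPM against 747 and 732 CPM. All 3 were higher in the members of both libraries.

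Long genes went both ways. Cmss1 was at 5544 and 2615 CPM in members and 1873 and 695 CPM in comparison nuclei, and Camk1d, a calcium-dependent kinase, at 1388 and 1007 CPM against 672 and 302 CPM, both higher in the members of each library. Pik3r1, the regulatory subunit of phosphatidylinositol 3-kinase, was at 848 and 1492 CPM in members and 1178 and 2251 CPM in comparison nuclei, and Tenm4, a transmembrane teneurin, at 1996 and 1912 CPM against 3243 and 2616 CPM. Pik3r1 and Tenm4 were lower in the members of both libraries.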
